A study of Mus musculus with 12 samples.

Results

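The 9 genes described here are the D-type cyclins (Ccnd1, Ccnd2 and Ccnd3), the kinases they bind (Cdk4 and Cdk6), the CIP/KIP inhibitors (Cdkn1a, Cdkn1b and Cdkn1c) and 1 inhibitor of the INK4 family (Cdkn2c). They were chosen by gene name, each had 1 row in a table of 43686 rows, and all 9 were among the 17155 rows with enough counts to be tested. The study asked what the loss of Sdhaf4, an assembly factor of succinate dehydrogenase, does to the heart, and RNA from the ventricular wall of 6 WT and 6 KO mice was sequenced. The WT mice were littermates homozygous for a floxed allele (Sdhaf4fl/fl) without Cre, and the KO mice carried the same floxed alleles together with Ckmm-Cre. Ckmm-Cre is driven by the muscle creatine kinase promoter, so both heart and skeletal muscle lose the gene, while fibroblasts, vessels and immune cells of the ventricle are expected to keep it. The labels give wild type and Sdhaf4-/- genotypes, the strain C57BL/6 and an age of 2 months, without naming the Cre. The paper's results give a younger age for these hearts, and its reporting material gives male mice at either of a pair of ages for the omics work, the older of which matches the labels.

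D-type cyclins are the cell's link between growth signals and division. They bind CDK4 or CDK6, the complex phosphorylates the retinoblastoma protein (RB), and E2F transcription factors are freed to switch on genes of DNA replication. INK4 proteins block CDK4 and CDK6 themselves, whereas CIP/KIP proteins bind whole cyclin-kinase complexes and inhibit above all those of CDK2, and they can also help cyclin D and CDK4 to assemble. Cardiomyocytes leave the cell cycle soon after birth, and adult heart muscle is known for high inhibitor and low cyclin levels, while fibroblasts and endothelial cells of the same wall can still divide.

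The libraries held 23747014 to 27159228 counts in WT and 26542930 to 31393393 in KO. Levels are given as CPM, the counts of a gene relative to a fixed library size, with library sizes scaled by the trimmed mean of M values (TMM). Sdhaf4 stood at 24.1 to 30.3 CPM in WT replicates 1 to 5, at 14.3 CPM in WT replicate 6, and at 2.25 to 2.73 CPM in the 6 KO hearts, so that every library matched its label (log2 fold change -3.39 with an SE of 0.16, adjusted p = 1.95e-10, edgeR). Over the rows that differed strongly between genotypes when the library in question was left out of the fit, KO replicate 3 was displaced towards WT by a median of 0.219 of the distance between the groups, against -0.0709 to 0.0654 for the other 11 libraries. The changes are also given below without KO replicate 3 and WT replicate 6, an alternative chosen after the data were seen. By this measure WT replicate 6 (0.0654) did not stand apart. Cardiomyocyte markers summed to 51100 to 55900 CPM in WT and 41600 to 58200 CPM in KO. The highest KO sum was that of KO replicate 3, and the other KO hearts, at 41600 to 46600 CPM, were below every WT heart. Of 9 tested cardiomyocyte markers, 1 was higher and 5 were lower, and the tissue label held. Fibroblast markers summed to 1600 to 1860 CPM in WT and 2690 to 5030 CPM in KO, with 8 of 10 higher and 1 lower. No marker of either list was at 0 in all 12 libraries. Of the other lists, endothelial markers were higher for 4 and lower for 2 of 9, mural markers for 3 and 1 of 7, macrophage markers for 1 and 2 of 9, atrial markers for 1 and 2 of 3, Schwann cell markers for 0 and 3 of 3, skeletal muscle markers for 0 and 1 of 2, and the 4 lymphocyte markers and the 1 mesothelial marker tested passed in neither direction. In whole tissue, fewer cells of a type and less RNA per cell cannot be told apart.

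Of the 9 genes, 4 were higher in KO (Ccnd1, Ccnd2, Ccnd3 and Cdkn1a), 4 were lower (Cdk6, Cdkn1b, Cdkn1c and Cdkn2c) and Cdk4 did not pass an adjusted p of 0.05 in edgeR's quasi-likelihood test. Among all rows tested, 25.6% were higher and 25.5% lower by the same rule, 51.1% in either direction, so calls were common in these hearts. None of the 9 reached the study's stricter threshold, which asks for an adjusted p below 0.005 and a log2 fold change beyond 1 in either direction, and which 10.2% of all rows passed (5.36% higher and 4.87% lower). At an unadjusted p under 0.05 the 8 called genes passed, and under no alternative test did any of the 9 lie more than 1 from 0 on the log2 scale. On TMM-scaled CPM the ranges of the WT and KO hearts did not overlap in 6 of the 9, compared with 30.1% of all rows (14.9% with KO above and 15.2% with KO below), and the other 3 were Cdk4, Cdk6 and Cdkn1a. On deposited FPKM, and on CPM without TMM scaling, the ranges of Ccnd3 and Cdkn2c overlapped as well, which left 4 of the 9 against 29.4% of all rows. All 3 D-type cyclins went up, and of the 4 inhibitors 3 went down and 1, Cdkn1a, went up.

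**Figure D1:**
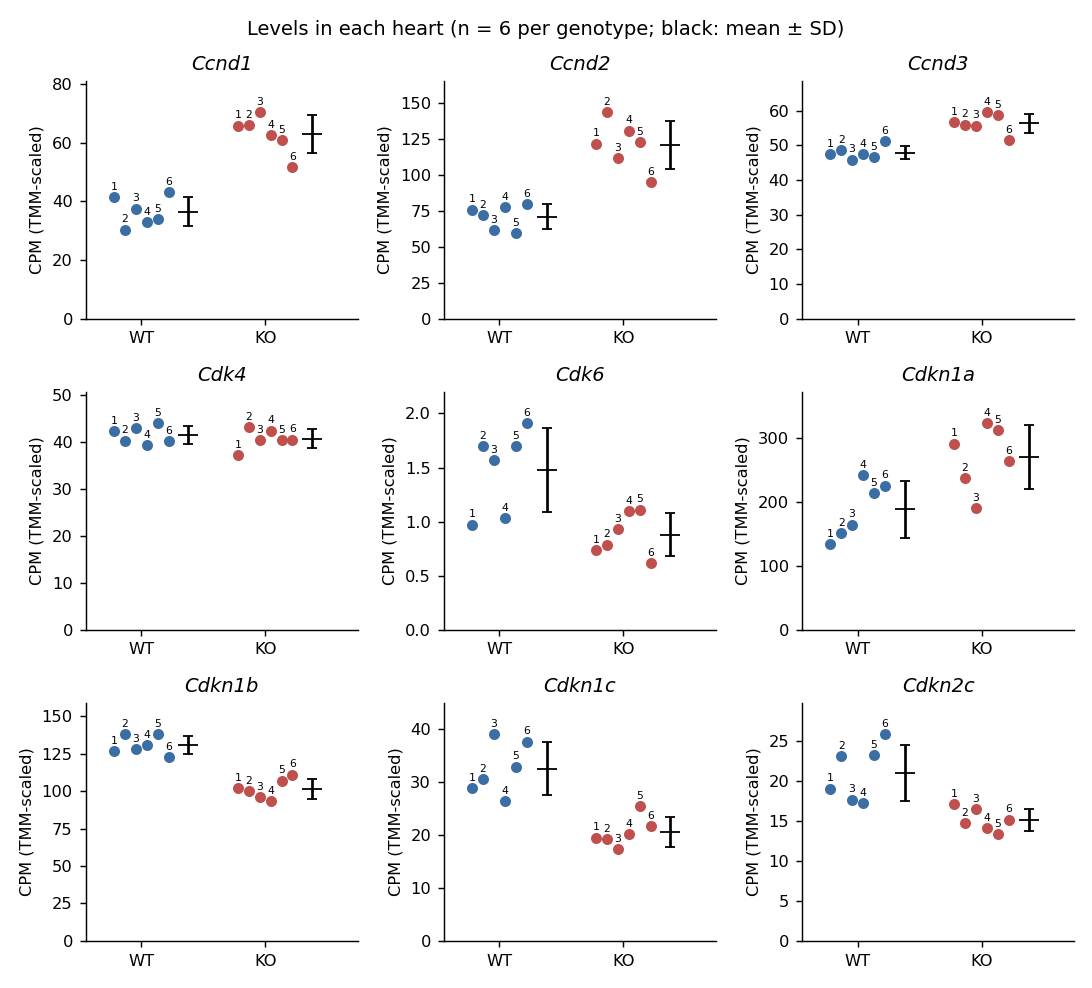
CPM of each gene (vertical axes, from 0, a scale per gene) in the 6 WT (blue) and 6 KO (red) hearts, numbered by replicate, with the mean ± SD in black. On this scale the groups of Ccnd1, Ccnd2 and Ccnd3 are separate with KO above WT and those of Cdkn1b, Cdkn1c and Cdkn2c with KO below WT, those of Cdk4, Cdk6 and Cdkn1a overlap, and on FPKM or without TMM scaling those of Ccnd3 and Cdkn2c overlap too.

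The D-type cyclins share a short sequence by which they can bind RB, the LxCxE motif, close to the start of the protein. The first 60 coding bases of each are shown because the 3 genes have this motif in common. They are read from GRCm38 with the GENCODE M21 annotation, each within 1 exon, for Ccnd1 at chr7:144939634-144939693 on the minus strand, for Ccnd2 at chr6:127150714-127150773 on the minus strand and for Ccnd3 at chr17:47593655-47593714 on the plus strand. Capitals mark the motif, which takes codons 5 to 9 in Ccnd1 and codons 3 to 7 in Ccnd2 and Ccnd3.
Ccnd1: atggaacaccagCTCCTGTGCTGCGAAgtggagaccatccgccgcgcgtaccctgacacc
Ccnd2: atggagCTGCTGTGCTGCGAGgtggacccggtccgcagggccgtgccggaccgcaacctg
Ccnd3: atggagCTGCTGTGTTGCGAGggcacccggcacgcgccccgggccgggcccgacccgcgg
Over their whole coding sequences, 70.4% of aligned bases were identical between Ccnd1 and Ccnd2, 68.8% between Ccnd2 and Ccnd3, and 65.8% between Ccnd1 and Ccnd3.

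Ccnd1 encodes cyclin D1, the D-type cyclin best known as a target of mitogenic signalling. Its WT hearts ran from 30.3 to 43.0 CPM around a median of 35.6 CPM, and its KO hearts from 51.7 to 70.4 CPM around a median of 64.2 CPM. Every KO heart was above every WT heart, with KO replicate 6 the lowest of its group and KO replicate 3 the highest. The mean rose from 36.5 ± 5.08 to 62.9 ± 6.38 CPM (SD, n = 6 each), a log2 fold change of 0.79 with an SE of 0.09 (adjusted p = 2.04e-06, edgeR). Ccnd2 (0.77) and Cdk6 (-0.75) changed by similar amounts, and which of these was farthest from 0 varied with the libraries left out.

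Ccnd2, which encodes cyclin D2, changed by nearly the same factor. WT hearts lay between 59.5 and 79.8 CPM with a median of 74.2 CPM, and KO hearts between 95.0 and 144 CPM with a median of 122 CPM. The groups were again separate, and KO replicate 6 was again the lowest KO heart. The log2 fold change was 0.77 with an SE of 0.10 (adjusted p = 8.76e-06, edgeR).

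Ccnd3, for cyclin D3, moved the same way by a smaller amount. Its WT values were tight, from 45.9 to 51.1 CPM with a median of 47.5 CPM, and its KO values ran from 51.4 to 59.6 CPM with a median of 56.3 CPM. The separation, between WT replicate 6, the highest WT heart, and KO replicate 6, the lowest KO heart, was narrow and depended on the scaling: on FPKM the same hearts were at 50.3 and 48.0, and on CPM without TMM scaling at 52.5 and 50.1, so that the groups overlapped. The log2 fold change was 0.23 with an SE of 0.05 (adjusted p = 0.000558, edgeR), a rise of 17.7% against 72.4% for Ccnd1 and 70.3% for Ccnd2.

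The same 2 hearts set the edges for the whole family: WT replicate 6 had the highest WT value, and KO replicate 6 the lowest KO value, of all 3 cyclins. KO replicate 6 also had the lowest sum of fibroblast markers among the KO hearts, 2690 CPM, and WT replicate 6 the highest among the WT hearts, 1860 CPM. KO replicate 3, with the next lowest sum of 3050 CPM, had the next lowest KO values of Ccnd2 (112 CPM) and Ccnd3 (55.7 CPM) but the highest of Ccnd1 (70.4 CPM). KO replicates 1 and 4 had the highest sums, 5030 CPM each. KO replicate 4 had the highest Ccnd3 (59.6 CPM), but KO replicate 2 had the highest Ccnd2 (144 CPM). WT replicate 4 had the lowest WT sum, 1600 CPM, but the WT value of Ccnd2 next to the highest (77.5 CPM). KO replicate 6 was also the lowest KO heart for endothelial (2950 CPM) and macrophage markers (307 CPM), and WT replicate 6 the lowest WT heart for endothelial markers (3060 CPM). The fibroblast sums are weighted towards the most abundant markers, with KO means of 1290 CPM for Dcn and 785 CPM for Col3a1 against 16.3 CPM for Tcf21. The part of the fibroblast markers in the rise of the cyclins was not tested. With KO replicate 3 and WT replicate 6 both left out, the log2 fold changes were 0.80 for Ccnd1, 0.82 for Ccnd2 and 0.25 for Ccnd3, all past the threshold. Leaving out only WT replicate 6, the highest WT heart, raised them to 0.84, 0.80 and 0.25, and KO replicate 6, the lowest KO heart, was kept in both fits.

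Levels of different genes were compared per length, on the deposited FPKM values. The 3 cyclins together rose from 107 ± 9.52 to 158 ± 16.9 FPKM, from 94.7 to 121 FPKM in single WT hearts and from 128 to 174 FPKM in single KO hearts. Their mixture shifted as well. Ccnd3 made up 43.2 ± 2.03% of the sum in WT and 34.4 ± 2.02% in KO without overlap, and Ccnd2 rose from 40.6 ± 2.45% to 46.7 ± 2.57%. The share of Ccnd1 was 16.2 ± 1.80% in WT and 18.9 ± 1.43% in KO, with overlapping ranges. With the table's own length column in place of the length behind FPKM, the Ccnd3 share fell from 37.1 ± 1.95% to 28.9 ± 1.70% without overlap, whereas the ranges of the Ccnd2 share overlapped. These sums and shares are descriptions and carry no test.

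**Figure D2:**
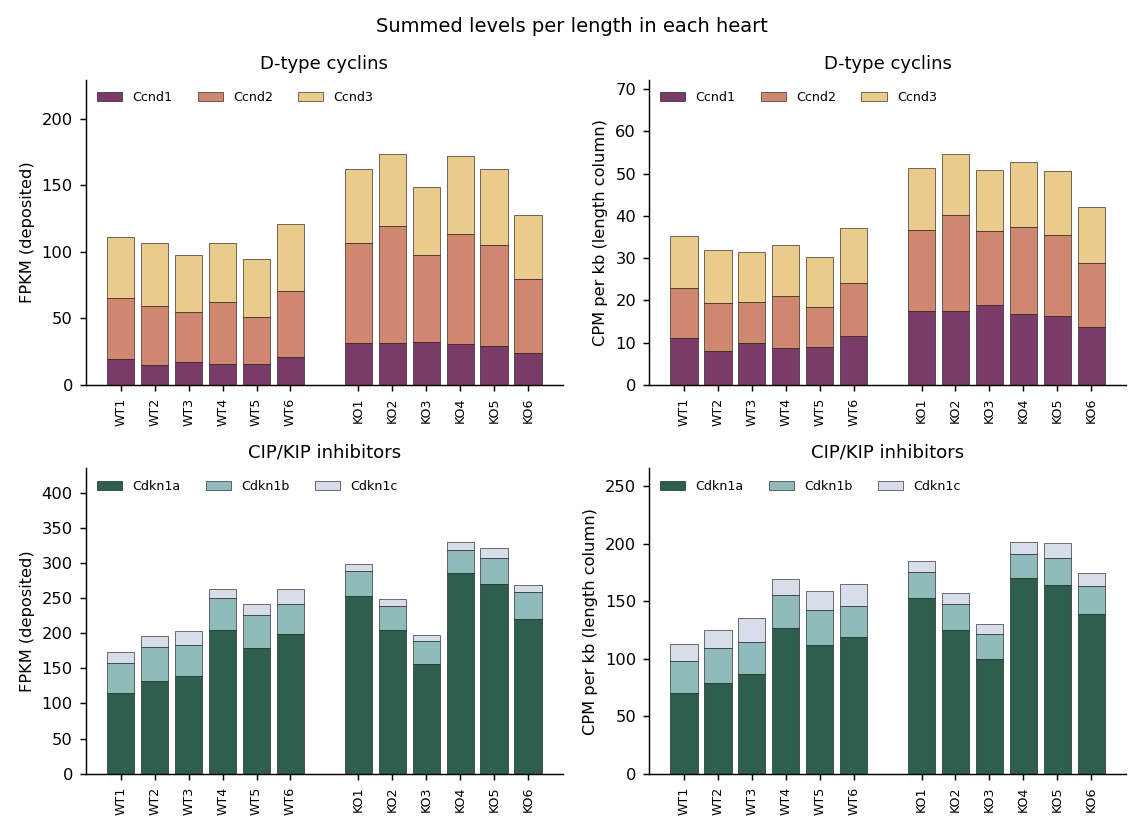
Summed level of the 3 D-type cyclins (top) and the 3 CIP/KIP inhibitors (bottom) in every heart, stacked by gene, as deposited FPKM (left) and as CPM per kilobase of the table's length column (right). The cyclin sums of the KO hearts, 128 to 174 FPKM, are all above the WT sums, 94.7 to 121 FPKM, and Cdkn1a forms most of every inhibitor bar.

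Neither kinase was higher in KO. Cdk4 had WT values of 39.3 to 44.0 CPM with a median of 41.3 CPM, and KO values of 37.2 to 43.1 CPM with a median of 40.4 CPM. The ranges lay almost on top of each other, with 1 KO heart below the WT minimum and none above the WT maximum. The log2 fold change was -0.03 with an SE of 0.05 (adjusted p = 0.651, edgeR), and over 25 alternatives it stayed between -0.05 and 0.00.

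Cdk6, the second kinase partner, was scarce. Its counts were 17 to 50 reads per library, which gave 0.973 to 1.91 CPM in WT with a median of 1.64 CPM and 0.613 to 1.11 CPM in KO with a median of 0.857 CPM. In 4 of 6 KO hearts the value was below the lowest WT heart, and the other 2 KO hearts lay within the WT range. Its log2 fold change was -0.75 with an SE of 0.24 (adjusted p = 0.0161, edgeR), and without KO replicate 3 and WT replicate 6 the adjusted p was 0.0482. On log2(FPKM + 1), a scale that understates changes of such low genes, the log2 fold change was -0.31. Its row has a length of 2232 bases in the table, against 11525 bases for the longest Cdk6 transcript of GENCODE M21, and what this does to its counts was not tested. On FPKM, Cdk6 stood at 2.38 ± 0.627% of Cdk4 in WT and at 1.44 ± 0.314% in KO, with overlapping ranges. Coding bases of Cdk4 and Cdk6 were identical at 68.8% of aligned positions.

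Summed cyclin FPKM per summed Cdk4 and Cdk6 FPKM was 2.70 ± 0.288 in WT and 4.11 ± 0.359 in KO, with every KO heart (3.46 to 4.55) above every WT heart (2.30 to 3.06). With the table's length column the same ratio was 1.60 ± 0.167 and 2.50 ± 0.221, also without overlap. Summed cyclin FPKM per summed CIP/KIP inhibitor FPKM was 0.489 ± 0.0942 in WT and 0.583 ± 0.114 in KO. The ranges of this ratio overlapped, as they did with the length column.

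The CIP/KIP inhibitors carry a short cyclin-binding motif at the start of the domain that inhibits the kinase, and 60 coding bases around it are shown because the 3 genes have this region in common although they moved in different directions. The windows are again from GRCm38 with GENCODE M21 and within 1 exon each, for Cdkn1a at chr17:29098435-29098494 on the plus strand, for Cdkn1b at chr6:134920983-134921042 on the plus strand and for Cdkn1c at chr7:143460576-143460635 on the minus strand. Capitals mark the motif, at codons 17 to 22, 29 to 34 and 19 to 24 in that order.
Cdkn1a: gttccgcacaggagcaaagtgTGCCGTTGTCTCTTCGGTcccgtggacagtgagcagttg
Cdkn1b: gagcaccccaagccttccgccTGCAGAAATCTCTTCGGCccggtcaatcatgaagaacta
Cdkn1c: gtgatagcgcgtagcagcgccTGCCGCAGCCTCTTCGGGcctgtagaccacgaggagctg
The whole coding sequences have 480, 594 and 1008 bases, and 62.0% to 70.3% of aligned bases, or 33.0% to 48.1% of the bases of the longer gene, were identical between pairs.

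Cdkn1a encodes p21, which p53 and other stress pathways switch on. WT hearts spread from 134 to 243 CPM with a median of 190 CPM, and KO hearts from 191 to 324 CPM with a median of 279 CPM. In 4 of 6 KO hearts the value was above the highest WT heart, whereas KO replicates 2 and 3 lay within the WT range. The spread within each group was the widest of the inhibitors, with a coefficient of variation of 23.5% in WT and 18.5% in KO. The log2 fold change was 0.52 with an SE of 0.17 (adjusted p = 0.021, edgeR). This call was near the threshold. Without KO replicate 4, the highest KO heart, the log2 fold change was 0.46 and the adjusted p 0.0512 (edgeR). Without KO replicate 1 or KO replicate 5 the adjusted p was 0.044 or 0.0451 (edgeR). Without KO replicate 3 and WT replicate 6 it was 0.65 (adjusted p = 0.00867, edgeR).

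Cdkn1b encodes p27, the inhibitor that holds resting cells out of the cycle. Its WT hearts lay between 123 and 138 CPM with a median of 129 CPM, and its KO hearts between 93.4 and 111 CPM with a median of 101 CPM. All KO hearts were below all WT hearts, and both groups were tight. The mean fell from 131 ± 6.13 to 102 ± 6.53 CPM (SD, n = 6 each), and its log2 fold change was -0.36 with an SE of 0.05 (adjusted p = 1.51e-05, edgeR).

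Cdkn1c encodes p57, an imprinted inhibitor expressed from the maternal copy. WT hearts ranged from 26.4 to 39.0 CPM with a median of 31.7 CPM, and KO hearts from 17.3 to 25.5 CPM with a median of 19.8 CPM. No KO heart reached the lowest WT heart, although KO replicate 5 came close to it. The log2 fold change was -0.66 with an SE of 0.10 (adjusted p = 6.02e-05, edgeR), the largest fall among the inhibitors.

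Because Cdkn1a rose while Cdkn1b and Cdkn1c fell, the family's composition changed. On FPKM the 3 inhibitors together were at 223 ± 37.8 in WT and 278 ± 49.7 in KO, with overlapping ranges. Cdkn1a supplied 71.5 ± 4.91% of the sum in WT and 83.1 ± 2.53% in KO, Cdkn1b 20.7 ± 3.73% and 13.0 ± 2.17%, and Cdkn1c 7.79 ± 1.62% and 3.92 ± 0.437%. Each of these shares was separate between the groups, on FPKM as well as with the table's length column. Cdkn1a FPKM per Cdkn1b FPKM was 2.61 to 4.58 in single WT hearts and 4.89 to 8.56 in single KO hearts.

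The promoters of Cdkn1a and Cdkn1b are shown because these inhibitors, the highest of the 4 per length in both genotypes, moved in opposite directions. Promoter windows run from 250 bases before to 50 bases after a RefSeq transcription start on GRCm38.p6, and the RefSeq table at hand held windows for 6 of the 9 genes, without Ccnd1, Ccnd2 and Cdkn1c. Searched on both strands were the GC box (GGGCGG), the E-box (CACGTG), the AP-1 site (TGANTCA), a FOXO site (TGTTTAC), an E2F site (TTTCGCG) and the p53 element by its name, as 20 bases with at most 1 mismatch. Of 32851 promoter windows in the mouse genome, 35.7% held a GC box, 7.15% an E-box, 7.81% an AP-1 site, 3.65% a FOXO site, 0.849% the E2F site and 0.0883% a p53 element. Cdkn1a has a pair of starts, 2790 bases apart. The window of the upstream start, chr17:29090729-29091028 on the plus strand, held a p53 element, shown in capitals and ahead of the start, and none of the other motifs.
Cdkn1a upstream start: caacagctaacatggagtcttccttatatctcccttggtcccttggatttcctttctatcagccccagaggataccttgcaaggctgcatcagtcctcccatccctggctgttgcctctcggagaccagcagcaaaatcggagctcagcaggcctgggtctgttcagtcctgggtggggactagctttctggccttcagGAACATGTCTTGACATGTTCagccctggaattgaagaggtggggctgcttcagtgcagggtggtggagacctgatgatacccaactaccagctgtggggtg
The window of the downstream start, chr17:29093519-29093818 on the plus strand, held 2 GC boxes, in capitals.
Cdkn1a downstream start: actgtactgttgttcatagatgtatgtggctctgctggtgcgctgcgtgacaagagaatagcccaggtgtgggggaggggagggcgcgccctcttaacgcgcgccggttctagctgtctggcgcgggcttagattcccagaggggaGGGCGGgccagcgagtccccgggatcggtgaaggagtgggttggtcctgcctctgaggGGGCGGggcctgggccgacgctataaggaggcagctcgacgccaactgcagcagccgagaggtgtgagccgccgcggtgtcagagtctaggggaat
In Cdkn1b the window was chr6:134920151-134920450 on the plus strand, with 1 GC box in capitals.
Cdkn1b: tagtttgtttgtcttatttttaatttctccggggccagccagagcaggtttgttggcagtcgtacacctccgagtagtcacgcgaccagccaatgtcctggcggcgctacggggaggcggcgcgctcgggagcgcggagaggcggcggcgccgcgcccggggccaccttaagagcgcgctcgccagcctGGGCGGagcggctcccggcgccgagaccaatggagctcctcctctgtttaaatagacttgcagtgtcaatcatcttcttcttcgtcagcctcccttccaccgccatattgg
The gene-level counts do not separate the starts of Cdkn1a. Elsewhere, Cdk4, whose level did not pass the test, had 4 E-boxes and 3 GC boxes in its window, 2 of the latter overlapping by 1 base, Cdk6 had 1 E-box, 1 of the Cdkn2c windows held the E2F site together with an E-box and the other 4 GC boxes, and the Ccnd3 windows held 2 GC boxes each, with a FOXO site in 1 of them. These matches describe the letters only.

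Cdkn2c encodes p18, an INK4 inhibitor of CDK4 and CDK6. It lay at 17.3 to 25.9 CPM in WT with a median of 21.2 CPM, and at 13.4 to 17.1 CPM in KO with a median of 15.0 CPM. The groups were separate by a small margin between WT replicate 4 and KO replicate 1, which turned into an overlap on FPKM (9.52 and 9.69) and on CPM without TMM scaling (17.0 and 17.3). The log2 fold change was -0.48 with an SE of 0.10 (adjusted p = 0.000862, edgeR). Cdkn2c FPKM per Cdk4 FPKM was 0.305 ± 0.0543 in WT and 0.225 ± 0.0303 in KO, with overlapping ranges. Without KO replicate 3 and WT replicate 6, the log2 fold changes of the lower inhibitors were -0.37 for Cdkn1b, -0.58 for Cdkn1c and -0.44 for Cdkn2c, all past the threshold.

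**Figure D3:**
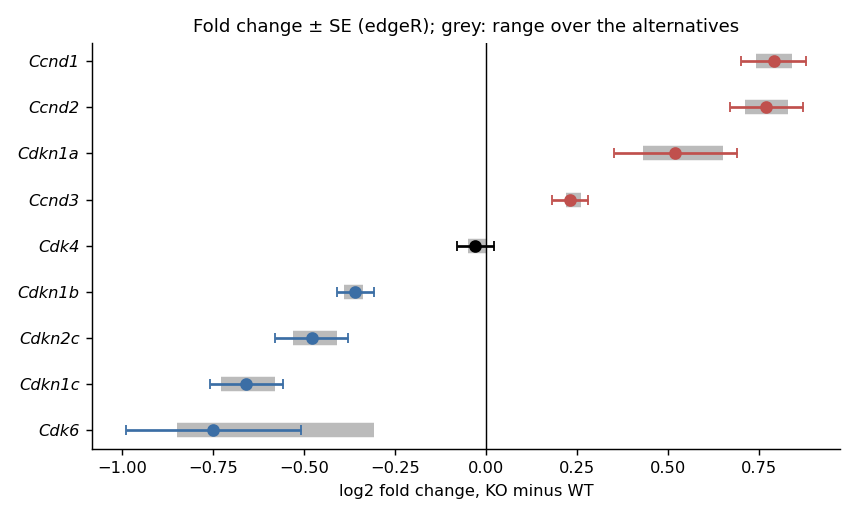
Log2 fold change (KO minus WT, horizontal axis) of each gene with its SE, in red where higher and in blue where lower at an adjusted p under 0.05, and in black where not called. Grey bars give the range over 25 alternatives, which is widest for Cdk6 (-0.85 to -0.31) and for no gene crosses 0.

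On FPKM, Cdkn1a was the highest of the 9 in both genotypes, at 161 ± 37.8 in WT and 232 ± 47.6 in KO, and Cdk6 the lowest, at 0.923 ± 0.250 and 0.548 ± 0.133. In WT the next 4 were Ccnd3 (45.9 ± 2.65 FPKM), Cdkn1b (45.1 ± 2.05 FPKM), Ccnd2 (43.4 ± 5.79 FPKM) and Cdk4 (38.6 ± 1.39 FPKM), and the range of each overlapped that of the next. Below a gap came Ccnd1 (17.3 ± 2.55 FPKM), Cdkn1c (17.0 ± 2.69 FPKM) and Cdkn2c (11.8 ± 2.15 FPKM), also overlapping from one to the next. In KO, Ccnd2 (74.0 ± 11.4 FPKM) stood above Ccnd3 (54.1 ± 3.91 FPKM) with overlap between them, followed by Cdk4 (37.9 ± 2.26 FPKM), Cdkn1b (35.1 ± 2.18 FPKM) and Ccnd1 (29.8 ± 3.08 FPKM), which were separate from Ccnd3 but overlapped from one to the next. Cdkn1c (10.7 ± 1.57 FPKM) and Cdkn2c (8.48 ± 0.716 FPKM) overlapped and were lower than these. The middle of this order depends on gene length. The length behind the FPKM values was shorter than the length column for all 9 genes, by a factor from 1.01 for Cdkn1c to 3.87 for Ccnd2, and with the length column the means of Cdkn1b and Cdk4 were above that of every D-type cyclin in both genotypes. Cdkn1a at the top and Cdkn2c and Cdk6 at the bottom stayed in place.

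Rows of other genes share bases with some of these genes, and since no source used here gives the strand setting of the counting, reads where they overlap may come from either. Ccnd1 shares 814 bases with Oraov1 (log2 fold change -0.25), Ccnd3 shares 367 bases with Bysl (0.42), and Cdk4 shares 604 bases with Tspan31 (0.03), each on the opposite strand. The 2 rows without a gene name that overlap Ccnd2 held at most 49 counts per library, and 3 of the 7 that overlap Cdk6 held counts, at most 19 per library. Against the 17 to 50 counts of Cdk6 itself the latter are not small. These overlaps were measured over whole gene spans, introns included, so the shared bases need not lie in exons. How reads in them were counted was not tested.

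Other genes of the pathway were called in both directions. Of 26 genes of the RB and E2F pathway, 4 were higher and 5 lower, and 17 were not called, so that 34.6% were called against 51.1% of all rows, with a median log2 fold change of -0.03 against 0.002. Rbl2, which encodes the RB relative p130 of resting cells, fell from 120 ± 9.58 to 62.2 ± 7.18 CPM, which is a log2 fold change of -0.95 with an SE of 0.07 (adjusted p = 1.96e-08, edgeR). RB itself (Rb1) had a log2 fold change of 0.08 (adjusted p = 0.274, edgeR). Ccne2, for the cyclin E2 that activates CDK2, rose by 0.69 from 2.47 ± 0.479 to 3.99 ± 0.538 CPM, and Ccnh, for a subunit of the kinase that activates CDKs, fell from 27.3 ± 2.69 to 18.6 ± 3.03 CPM. Of its partners in that kinase, Mnat1 rose by 0.39 (adjusted p = 0.000202, edgeR) and Cdk7 was not called (-0.02, adjusted p = 0.801, edgeR). Also higher were E2f6 and Tfdp1, and also lower were Tfdp2, Cdk2 and the INK4 inhibitor Cdkn2d (-0.25, adjusted p = 0.0237, edgeR).

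Many genes of DNA replication and mitosis are driven by E2F. Of 32 tested, 1 was higher and 10 lower, where 25.6% of all rows were higher and 25.5% lower, and 21 were not called. That is 34.4% called against 51.1% of all rows, with a median log2 fold change of -0.56. With the replicate number as a block, 6 were lower. Among the genes of DNA replication, Mcm4, Pcna and Cdt1 were lower. Not called were Mcm2, Mcm3, Mcm5, Mcm6, Mcm7, Rrm1, Rrm2, Gins2, Cdc6 and Cdc45, with log2 fold changes from -0.54 (Cdc6) to 0.39 (Gins2). Cenpf, a kinetochore protein, fell from 16.2 ± 8.64 to 3.24 ± 1.85 CPM with no overlap, for a log2 fold change of -2.31 with an SE of 0.42 (adjusted p = 0.000708, edgeR). Mki67, the Ki-67 antigen of cycling cells, fell from 16.8 ± 7.55 to 6.81 ± 2.77 CPM, and Ccnb2, for the mitotic cyclin B2, from 2.95 ± 1.81 to 1.21 ± 0.608 CPM, the latter with overlap. The 1 gene that rose was Cenpa, the centromeric histone H3 variant, with a log2 fold change of 0.80 (adjusted p = 8.39e-09, edgeR). Within each genotype the hearts varied widely in these genes, with Mki67 from 10.2 to 29.7 CPM in WT and from 2.13 to 9.67 CPM in KO.

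Among 36 targets of p53 other than Cdkn1a, 17 were higher, 6 lower and 13 not called, so that 63.9% were called against 51.1% of all rows, with a median log2 fold change of 0.21. Phlda3, an inhibitor of AKT signalling, rose from 14.2 ± 0.871 to 41.2 ± 8.02 CPM, which is a log2 fold change of 1.54 with an SE of 0.11 (adjusted p = 2.64e-08, edgeR). Tigar, a regulator of glycolysis, rose from 73.5 ± 10.3 to 160 ± 32.7 CPM, and the stress-induced cytokine Gdf15 from 0.450 ± 0.138 to 2.12 ± 1.03 CPM, on as few as 6 counts in a library. Mdm2, which encodes the ubiquitin ligase of p53 and is itself its target, had a log2 fold change of -0.10 (adjusted p = 0.126, edgeR). The 6 lower genes were Ccng1, Gadd45a, Eda2r, Btg2, Rrm2b and Xpc. Many of these genes also answer to other stress pathways.

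Proteins that set the stability of cyclin D and the CIP/KIP inhibitors were split, with 5 of 15 higher and 5 lower (66.7% called, against 51.1% of all rows) and a median log2 fold change of 0.03. Fbxo31, an F-box protein reported to direct cyclin D1 to degradation, fell from 293 ± 29.4 to 86.8 ± 22.1 CPM, which is a log2 fold change of -1.76 with an SE of 0.15 (adjusted p = 6.18e-07, edgeR). No KO heart exceeded 116 CPM and no WT heart was under 249 CPM. Ambra1, the substrate receptor of the CUL4 ligase for D-type cyclins, rose by 0.32 (adjusted p = 0.000245, edgeR), along with Cul4b (0.41) and Ddb1 (0.18) of the same ligase, Fbxw8 and Gsk3b. Both subunits of the ligase that degrades p27 in early G1, Rnf123 (-0.20) and Ubac1 (-0.26), were lower. The chaperones that fold CDK4, Hsp90ab1 (-0.36) and Cdc37 (-0.26), were also lower.

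Cdkn1c lies in an imprinted region, and 12 other genes of imprinted regions were tested. Of these 4 were higher and 3 lower, 58.3% called against 51.1% of all rows, with a median log2 fold change of -0.12. The count of higher genes was 2 under 7 of 25 alternatives, among them leaving out KO replicate 4 or WT replicate 1, 2, 4 or 5, and without KO replicate 3 the count of lower genes was 5. Peg3, a paternally expressed zinc finger protein, rose from 59.1 ± 9.53 to 136 ± 18.8 CPM. Plagl1, a zinc finger transcription factor, was at 5.84 to 11.4 CPM in WT and 8.36 to 16.9 CPM in KO (log2 fold change 0.53, adjusted p = 0.0419, edgeR). Mest, also paternally expressed, fell from 18.8 ± 9.08 to 9.92 ± 2.16 CPM with overlap. Of the tested genes in the imprinted cluster of Cdkn1c, Kcnq1 had a log2 fold change of -0.27 (adjusted p = 0.0554, edgeR) and Cd81 of -0.11 (adjusted p = 0.143, edgeR), while Nap1l4 fell by 0.12 on the log2 scale (adjusted p = 0.0161, edgeR).

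**Figure D4:**
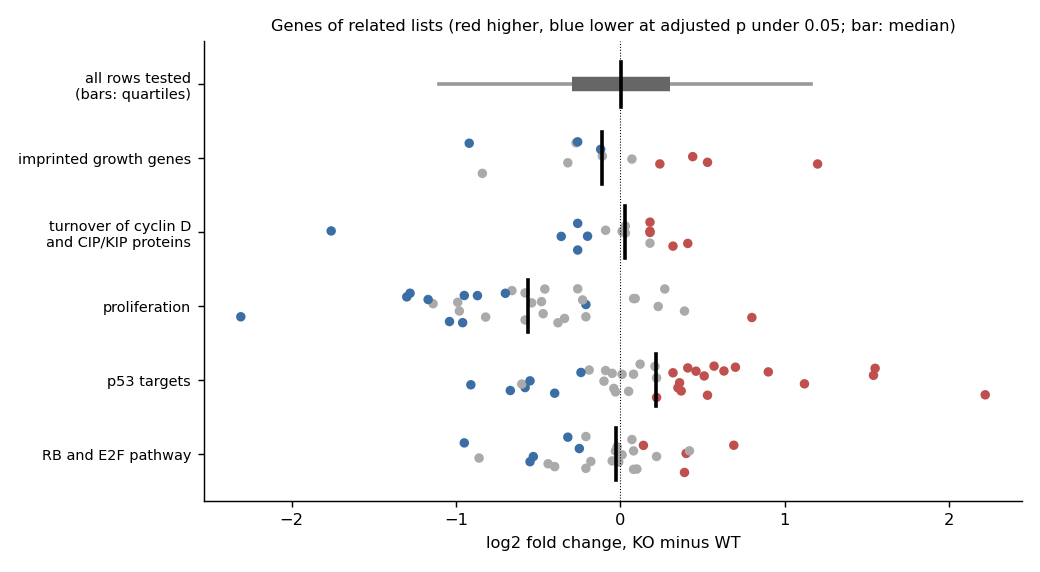
Log2 fold change (KO minus WT, horizontal axis) of each tested gene of 5 lists, in red where higher, in blue where lower and in grey where not called at an adjusted p under 0.05, with the median as a black bar; the top line gives the 5th to 95th percentile of all rows tested and its thick part the quartiles. The median is -0.56 for the proliferation genes and 0.21 for the p53 targets, against 0.002 for all rows.

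The genes with the profile most like each of the 3 with the smallest p were found by the root mean square difference of mean-centred log2 CPM over the 12 libraries, among 10242 rows. Ccnd1 was nearest to Sod3 (0.129) and Evi5 (0.134), Ccnd2 to Kctd17 (0.103) and Capg (0.112), and Cdkn1b to Hbs1l (0.0453) and Sertad2 (0.0501). By this choice they move with their partners, with log2 fold changes of 0.92 for Sod3, 0.84 for Evi5, 0.86 for Kctd17, 0.80 for Capg, -0.36 for Hbs1l and -0.35 for Sertad2.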

How the data were processed

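Ventricular RNA from 6 WT and 6 KO mice was purified on poly-T beads. The submitters' processing notes name HISAT2 2.0.5 and mm10, and the methods name HTSeq for counting. The authors deposited raw read counts and FPKM values per library in 1 table, next to group means, fold changes and p-values of their own comparison, which were not used. Gene identifiers follow the C57BL/6NJ assembly, so no coordinates of the table are printed. A length column is deposited with it, and it equals the length back-calculated from counts and FPKM, within 0.1%, in 51.4% of rows.

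Groups and replicate numbers came from the labels, and p-values measure the spread between these mice. For the main test edgeR 4.0.16 was run under R 4.3.3, with filterByExpr (17155 of 43686 rows), TMM, the quasi-likelihood test with robust dispersions, and Benjamini-Hochberg adjustment over all rows tested. Depth was 23747014 to 31393393 counts per library, and the chi-square per degree of freedom between replicates was never under 7.41, so each counted as 1 sample. The steps were tested on simulated data, with a criterion for passing that was set again after a first one was not met. There the quasi-likelihood test missed most small changes of genes with low counts, and DESeq2 made more false calls than its nominal rate. Alternatives were other scalings, filters and tests (DESeq2 1.42.0, limma 3.58.1), a replicate block, and each library left out.

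The genes and lists were chosen with earlier results of these data known. Named from each list of other genes were the 3 with the largest absolute log2 fold change at an adjusted p under 0.05 and a mean of at least 1 CPM; further genes of the lists were named after their values were seen. Nearest profiles were sought among rows with a mean of at least 5 CPM. Of the listed genes, Tyms, Uhrf1, Skp2, Skp1, H19, Meg3, Kcnq1ot1, Actn2 and Lyz2 were not analysed here.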

Additional observations from a re-analysis of the deposited data

Results flagged for a closer look

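In 46 groups of 6 values examined for a library far from the others (the 9 genes, Sdhaf4 and the shares and ratios made from the 9), 1 stood out, where chance gives about 2.3. Sdhaf4 was at 2.73 CPM in KO replicate 1 and at 2.25 to 2.41 CPM in the other 5 KO hearts, a gap of 0.659 of the group's range. No value of the 9 genes themselves was set apart in this way.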

How the results depend on the processing

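Over 25 alternatives, 3 to 4 of the 9 genes were higher and 4 were lower, and no fold change of the 9 turned its direction. The call of Cdkn1a was lost without KO replicate 4 (0.46, adjusted p = 0.0512, edgeR); over its alternatives the log2 fold change ran from 0.43 to 0.65 and the adjusted p from 0.00161 (DESeq2) to 0.0512. For Cdk6 it ran from -0.85 to -0.31, the latter on log2(FPKM + 1). Of the imprinted genes, 2 were higher on log2(FPKM + 0.1) and with the replicate block, and 5 were lower on log2(FPKM + 0.1), log2(FPKM + 1) and limma-voom. With each library left out in turn, 1 to 2 proliferation genes and 2 to 4 imprinted genes were higher, and 3 to 5 imprinted genes were lower: 2 proliferation genes without KO replicate 3, KO replicate 5 or WT replicate 2, 2 imprinted genes without KO replicate 4 or WT replicate 1, 2, 4 or 5, and 5 imprinted genes lower without KO replicate 3. The cause was not tested. Samples that share a number were treated as unpaired. Their deviations correlated at -0.162 to 0.0243, and only replicate 3 correlated best with its own number (0.0243 against 0.0215). Whether samples shared a litter or a batch was not tested. With the replicate block, 4123 rows were higher and 4110 lower, against 4391 and 4376, 6 proliferation genes were lower, and no call of the 9 was lost. Leaving out both KO replicate 3 and WT replicate 6 was added after the data were seen. Depth limits Cdk6, at 17 to 50 counts, most of the 9.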
